A study of Mus musculus with 2 samples.

Results

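The proteasome subunit genes are the protein-coding mouse genes whose symbols run from Psma to Psmg followed by a number. They were taken by symbol and gene type from the annotated genes of both libraries, with no use of their level, and all transcript models of a gene were summed. Of 48 such genes in GENCODE M21, 46 had reads in both libraries, out of 11160 genes of all kinds that did. The other 2, Psma8 on chromosome 18 and Psmb11 on chromosome 14, had 0 reads in both, which allows at most 2.74 reads per 1000000 reads (CPM) in replicate 1 and 4.79 CPM in replicate 2.

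Long-read RNA sequencing, in which a single read can span a whole transcript, was applied to gastrocnemius, a calf muscle made mostly of fast fibres. The RNA came from 14-day-old male B6CASTF1/J mice, a first-generation cross of the strains C57BL/6 and CAST, untreated as far as the labels say. The series has 1 group with 2 libraries, replicate 1 and replicate 2, each from 2 µg of RNA. Biosample names in the labels mention more than 1 male per library, and both libraries carry the same donor entry. Each SD below is therefore the spread between 2 libraries, perhaps between pools, and could in part be technical. Reads from the C57BL/6 and CAST copies of a gene were not separated.

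With spike-in RNA set aside, the libraries held 1094607 and 626289 reads. Muscle markers were high, with Acta1, Ckm, Myh4, Atp2a1, Tnnc2 and Mylpf together at 30.1% of the reads in replicate 1 and 28.3% in replicate 2. The libraries were not alike in their short and long transcripts, nor in fibroblast genes. The 4 fibroblast markers, led by Col1a1 and Col3a1, summed to 6907.5 CPM in replicate 1 and 2716.0 CPM in replicate 2. Col1a1 and Col3a1 are long, at 5876 and 5527 bases, while Dcn, also higher in replicate 1, has 1760 bases. The part of transcript length in the fibroblast difference was not tested. The 4 endothelial markers summed to 328.0 CPM in replicate 1 and 215.6 CPM in replicate 2.

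The proteasome is the main protease of the cytosol and nucleus, and it degrades proteins that carry chains of ubiquitin. Its core is a barrel of stacked rings, the outer rings of alpha subunits forming the gate and the inner rings of beta subunits holding the active sites. A cap with a ring of ATPases and a set of non-ATPase subunits binds the ubiquitin chain, removes it, and threads the unfolded protein into the core. In skeletal muscle the ubiquitin-proteasome system is known for the breakdown of myofibrillar proteins during atrophy and remodelling. Under interferon, and in cells of the immune system, the catalytic beta subunits are replaced by immune-type subunits.

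The 46 genes together made up 5290.5 CPM in replicate 1 and 5200.5 CPM in replicate 2, which is 0.529% and 0.520% of the reads. The sum averaged 5245.5 ± 63.6 CPM (SD, n = 2). A read stands for 1 molecule whatever its length, so CPM were not divided by transcript length, and the length of each gene's models is given where it matters. The median member had 87.5 CPM, against 12.1 CPM for the median gene with reads in both libraries. Of the 46 members, 41 lay above that median gene and 22 lay in the top 10% of genes, above 94.4 CPM. Members lie on 16 chromosomes, and only 2 pairs with reads lie within 50 kb of each other, Psme1 with Psme2 on chromosome 14 and Psmb9 with Psmb8 on chromosome 17.

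**Figure D1:**
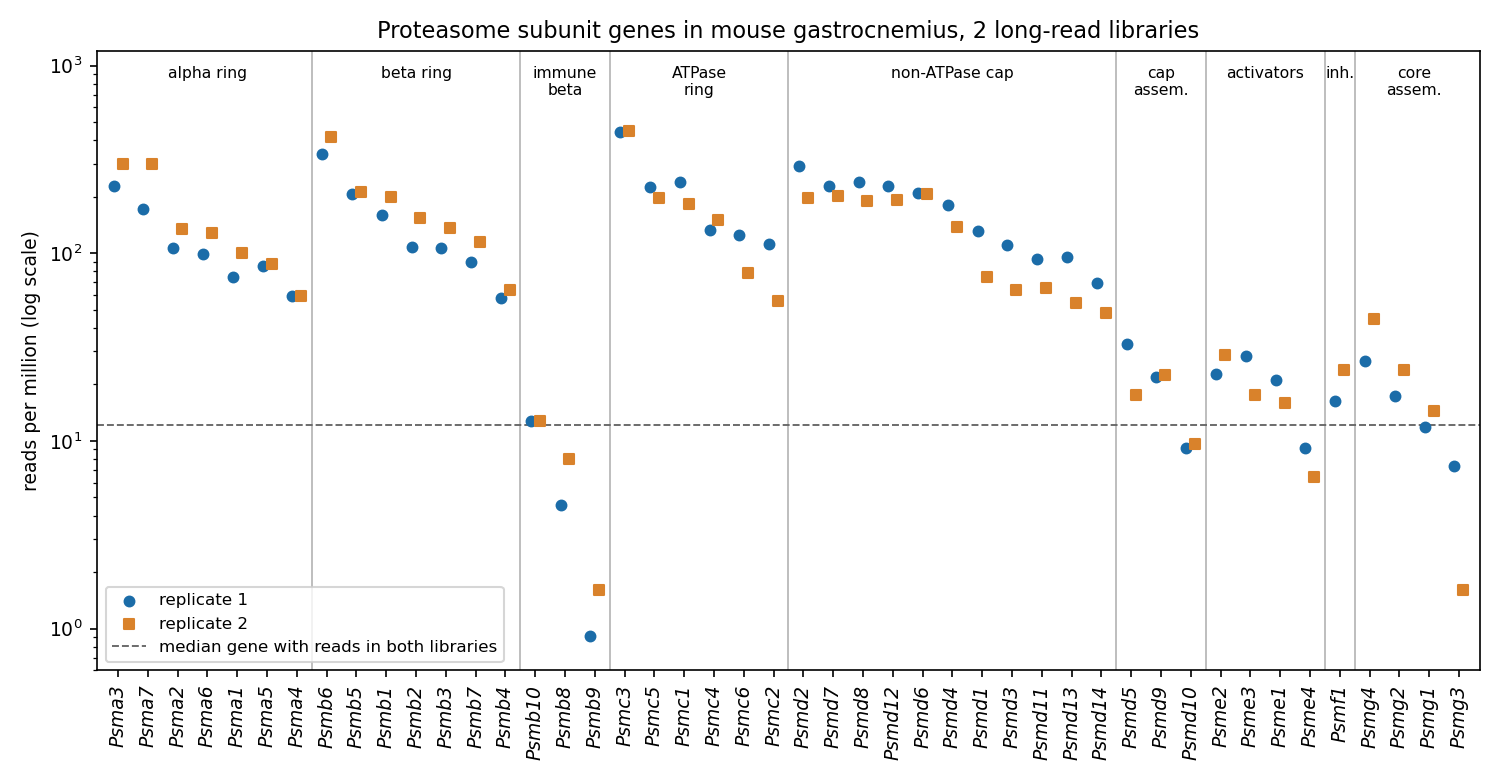
CPM of each proteasome subunit gene (log axis), grouped by role and ordered by mean within a role. Each point is 1 library and the dashed line is the median gene at 12.1 CPM. The core and cap subunits lie from 47.9 to 447.1 CPM, while the immune-type subunits, activators, inhibitor and assembly chaperones lie from 0.914 to 44.7 CPM.

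The 31 structural subunits of the core and the cap held most of the signal. All 7 alpha ring genes were measured and summed to 827.7 CPM in replicate 1 and 1109.7 CPM in replicate 2. Psma3 had 228.4 CPM in replicate 1 and 300.2 CPM in replicate 2. Psma7 had 172.7 CPM in replicate 1 and 300.2 CPM in replicate 2. These alpha genes, both highest in their ring, were also the members that the test called higher in replicate 2. Psma2 averaged 120.5 ± 19.3 CPM, Psma6 113.7 ± 19.9 CPM, Psma1 87.8 ± 18.2 CPM and Psma5 86.8 ± 1.37 CPM (SD, n = 2 each). Psma4 was the lowest of the ring at 59.4 CPM in replicate 1 and 59.1 CPM in replicate 2. The ring holds its alpha subunits in equal number, while their mean read levels spanned 4.46-fold between Psma3 and Psma4.

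The 7 constitutive beta ring genes summed to 1066.1 CPM in replicate 1 and 1298.1 CPM in replicate 2. The beta subunits with active sites are Psmb6, with caspase-like activity, Psmb7, with trypsin-like activity, and Psmb5, with chymotrypsin-like activity. Psmb6 had 338.0 CPM in replicate 1 and 418.3 CPM in replicate 2. Psmb5 had 206.5 CPM in replicate 1 and 210.8 CPM in replicate 2. Psmb7 had 89.5 CPM in replicate 1 and 115.0 CPM in replicate 2. In both libraries the order of the catalytic genes was Psmb6, Psmb5 and Psmb7. The non-catalytic Psmb1 averaged 179.7 ± 28.1 CPM, Psmb2 131.3 ± 33.3 CPM, Psmb3 121.3 ± 20.4 CPM and Psmb4 60.7 ± 4.46 CPM (SD, n = 2 each). Neighbours in this order such as Psmb2 and Psmb3 differed by less than the spread between libraries.

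The immune-type catalytic subunits were rare. Psmb10, which takes the place of Psmb7, had 14 reads in replicate 1 and 8 reads in replicate 2, 12.8 CPM in each. Its coding model Psmb10-201 held 11 of these reads in replicate 1 and 4 in replicate 2. In replicate 2 the retained-intron model Psmb10-205 held 2. Psmb8, which takes the place of Psmb5, had 5 reads in each library, 4.57 CPM in replicate 1 and 7.98 CPM in replicate 2. Psmb9, which takes the place of Psmb6, had 1 read in each library and cannot be told from the limit of 3 reads that a count of 0 allows. Its read in replicate 1 was of Psmb9-205, a retained-intron model. Psmb11, the thymic subunit, had 0 reads, and so did Psma8, the testis alpha subunit.

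Set against its constitutive partner, the immune-type gene took 2.80% of the reads over the 3 catalytic positions in replicate 1 (20 of 714 reads, Clopper-Pearson 95% interval 1.72 to 4.29%). In replicate 2 it took 2.92% (14 of 480 reads, 1.60 to 4.85%). The share differed between positions. Psmb10 took 12.5% of the Psmb10 and Psmb7 reads in replicate 1 (interval 7.01 to 20.1%) and 10% in replicate 2 (4.42 to 18.8%). Psmb8 took 2.16% of the Psmb8 and Psmb5 reads in replicate 1 (0.706 to 4.98%) and 3.65% in replicate 2 (1.20 to 8.31%). Psmb9 took 0.270% of the Psmb9 and Psmb6 reads in replicate 1 (0.00682 to 1.49%) and 0.380% in replicate 2 (0.00963 to 2.10%). In replicate 1 the interval at the Psmb10 position lay wholly above those of the other positions, and in replicate 2 it overlapped the interval of Psmb8 but not that of Psmb9. Intervals cover counting error only. Of the Psmb8 reads, 1 of 5 in replicate 1 and 3 of 5 in replicate 2 were reads of 1 exon within the last exon, and on complete models alone the mean Psmb8 share was 1.29% in place of 2.91%.

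**Figure D2:**
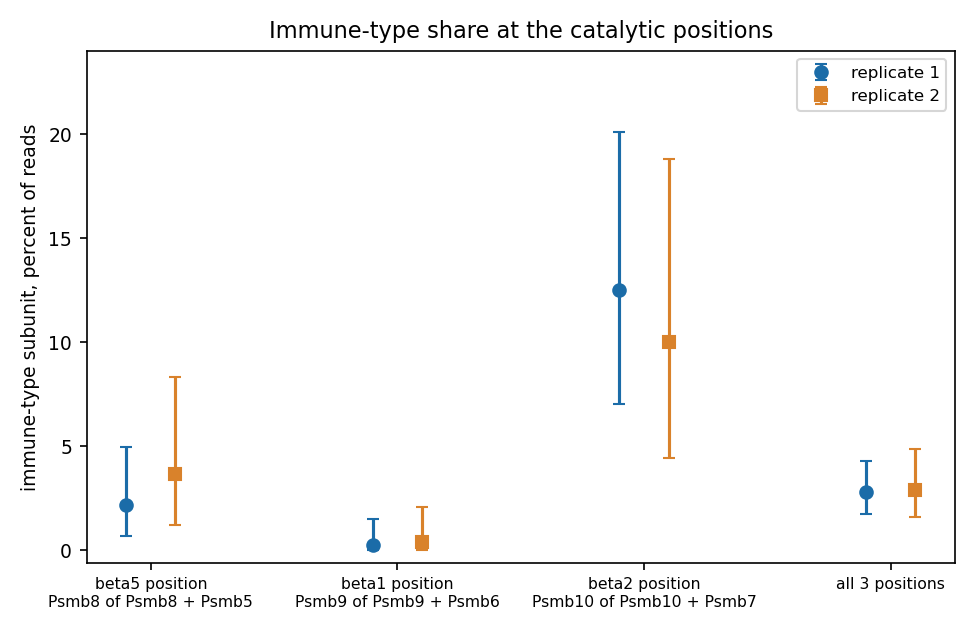
Share of reads on the immune-type subunit at each catalytic position (percent, vertical axis), as points for each library with Clopper-Pearson 95% intervals. Psmb10 stands at 12.5% and 10%, Psmb8 at 2.16% and 3.65%, Psmb9 at 0.270% and 0.380% in replicates 1 and 2, and all positions together at 2.80% and 2.92%.

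Genes that act with the immune-type subunits were measured beside them. The class I genes H2-D1 and B2m averaged 97.5 ± 15.9 CPM and 40.2 ± 2.62 CPM (SD, n = 2 each). Tapbp, a chaperone of peptide loading, averaged 36.4 ± 4.07 CPM, H2-K1 11.2 ± 6.77 CPM and Irf1, an interferon-response factor, 4.00 ± 3.39 CPM. Nlrc5, an activator of class I genes, had 0 reads. Of 10 leukocyte and macrophage markers 7 had reads, with a sum of 78.6 CPM in replicate 1 and 81.4 CPM in replicate 2, led by Lyz2 at 25.1 ± 8.42 CPM. The 7 with reads had a median of 10.5 CPM. Ptprc, Cd3e and Cd79a, which mark leukocytes, T cells and B cells, were at 0 in both libraries. A count of 0 allows at most 2.74 CPM in replicate 1 and 4.79 CPM in replicate 2. In a bulk tissue, fewer immune cells and less RNA per cell cannot be told apart, and the part of these cells in the immune-type reads was not tested.

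The ATPase ring, built from Psmc1 to Psmc6, summed to 1277.2 CPM in replicate 1 and 1112.9 CPM in replicate 2. Psmc3 was the highest member over all reads, at 440.3 CPM in replicate 1 and 447.1 CPM in replicate 2. Without reads of 1 exon it had 415.7 CPM in replicate 1 and 281.0 CPM in replicate 2, while Psmb6 had 338.0 CPM and 415.1 CPM, so that Psmc3 led in replicate 1 and Psmb6 in replicate 2. Psmc5 averaged 212.3 ± 20.2 CPM, Psmc1 211.5 ± 39.4 CPM and Psmc4 141.7 ± 11.8 CPM (SD, n = 2 each). Psmc6 had 125.2 CPM in replicate 1 and 78.2 CPM in replicate 2. Psmc2 had 112.4 CPM in replicate 1 and 55.9 CPM in replicate 2, and was the lowest ATPase gene in both.

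The 11 non-ATPase cap subunits summed to 1876.5 CPM in replicate 1 and 1430.6 CPM in replicate 2. The large scaffold Psmd2 had the highest mean, with 290.5 CPM in replicate 1 and 196.4 CPM in replicate 2. Psmd1, the other large scaffold, had 131.6 CPM in replicate 1 and 75.0 CPM in replicate 2. Psmd7, the partner of the deubiquitinase, averaged 214.8 ± 19.2 CPM, whereas Psmd14, the deubiquitinase that cuts the ubiquitin chain off the substrate, averaged 58.7 ± 15.2 CPM and was the lowest cap gene. The ubiquitin receptor Psmd4 averaged 159.6 ± 31.5 CPM. Among the lid subunits Psmd8 averaged 214.7 ± 34.9 CPM, Psmd12 209.5 ± 25.4 CPM, Psmd6 207.9 ± 0.511 CPM, Psmd3 87.2 ± 33.0 CPM, Psmd11 79.3 ± 19.6 CPM and Psmd13 75.1 ± 29.4 CPM (SD, n = 2 each).

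The factors that build or regulate the particle were lower than its structural subunits. The cap assembly chaperones Psmd5, Psmd9 and Psmd10 averaged 25.2 ± 10.8, 22.1 ± 0.303 and 9.36 ± 0.314 CPM (SD, n = 2 each). The core assembly chaperones Psmg4, Psmg2, Psmg1 and Psmg3 averaged 35.6 ± 12.9, 20.7 ± 4.66, 13.1 ± 1.76 and 4.45 ± 4.04 CPM. Psmg3 rested on 8 reads in replicate 1 and 1 read in replicate 2. The activators Psme1 and Psme2, which form a mixed ring on the core and are induced by interferon, averaged 18.5 ± 3.57 and 25.8 ± 4.17 CPM. The nuclear activator Psme3 averaged 22.9 ± 7.61 CPM and the large activator Psme4 7.76 ± 1.94 CPM. The inhibitor Psmf1 averaged 20.2 ± 5.31 CPM. Of these 12 genes, the highest value in any library was 44.7 CPM, of Psmg4 in replicate 2, and the lowest structural subunit value was 47.9 CPM, of Psmd14 in replicate 2, so the ranges did not meet.

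Other complexes give the scale of these levels. The 8 genes of the CCT chaperonin, a ring complex that folds actin and tubulin, had a median of 135.5 CPM and spanned 3.30-fold, from Cct2 at 87.9 ± 20.4 CPM to Cct5 at 290.2 ± 37.9 CPM. Cct7, Tcp1 and Cct6a averaged 200.2 ± 7.60, 149.2 ± 9.98 and 135.6 ± 38.2 CPM. The 14 core genes had a median of 120.9 CPM and the 17 cap genes 159.6 CPM. The 75 mitochondrial ribosomal protein genes had a median of 67.4 CPM, the 74 cytosolic ribosomal protein genes 206.7 CPM and the 36 nuclear genes of complex I 473.9 CPM. These medians are of means over both libraries. Complex I genes summed to 15703.4 CPM in replicate 1 and 27974.3 CPM in replicate 2. The cytosolic ribosomal genes summed to 13724.6 and 25845.9 CPM, and the mitochondrial ones to 5155.3 and 7303.3 CPM. The CCT sum went the other way, at 1348.4 and 1093.7 CPM. Median lengths were 761, 766, 1326 and 2400 bases in that order.

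Genes that feed or assist the proteasome were measured over lists chosen for their function. The polyubiquitin gene Ubb had 2512.3 CPM in replicate 1 and 2050.2 CPM in replicate 2. Rps27a, which encodes ubiquitin fused to a ribosomal protein, had 177.2 CPM in replicate 1 and 257.1 CPM in replicate 2. The ubiquitin-activating enzyme Uba1 averaged 90.1 ± 57.4 CPM (SD, n = 2), and Uba6 had 1 read in all. Ubb was called higher in replicate 1 and Rps27a in replicate 2 by Fisher's exact test between the libraries, which called 13.5% of all genes tested.

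Among 17 partners of the proteasome, all had reads. Sem1, a small cap subunit whose symbol lies outside the naming series, averaged 246.3 ± 96.5 CPM, and Pomp, the maturation factor of the core, averaged 169.8 ± 48.9 CPM. Zfand5, known in mouse muscle as a proteasome activator during atrophy, averaged 221.8 ± 94.6 CPM (SD, n = 2 each). The lowest partner was Zfand2a, with 1 read. Of the 15 partners tested, 1 was called higher in replicate 1 and 2 in replicate 2, against 6.89% and 6.56% of all genes.

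Nfe2l1, the transcription factor that restores proteasome genes when proteasome activity falls, averaged 155.9 ± 62.4 CPM, the highest of 7 regulators. Ngly1, which processes it, averaged 60.7 ± 4.57 CPM, Stat3 45.7 ± 19.4 CPM, Nfe2l2 18.5 ± 12.6 CPM and Foxo4 4.11 ± 3.22 CPM (SD, n = 2 each). The unfoldase Vcp, which hands ubiquitylated proteins to the proteasome, averaged 370.3 ± 144.3 CPM. Its cofactors Ubxn1, Nsfl1c, Nploc4 and Ubxn4 averaged 160.3 ± 5.83, 56.3 ± 9.57, 45.0 ± 13.9 and 38.1 ± 22.3 CPM. Of the 6 regulators tested 1 was called, and of the 6 unfoldase genes 2, all higher in replicate 1, where 6.89% of all genes were called.

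The libraries are of the same group, so the next comparison describes how far a member's count can be relied on and says nothing of a condition. Each gene's reads were compared between replicate 1 and replicate 2 by Fisher's exact test against all other reads, which allows for sampling noise alone. Of 7955 genes with at least 10 reads, 1070 were called at a Benjamini-Hochberg adjusted p under 0.05, a background of 13.5%. Of the 44 members tested 8 were called, which is 18.2%. In replicate 1, 6 members were higher, 13.6% against a background of 6.89%, and in replicate 2, 2 were higher, 4.55% against 6.56%. The members' share over both directions was near the background. The share higher in replicate 1 was above its background and rested on 6 members, and the share higher in replicate 2 was below its own. Psmb9 and Psmg3 had too few reads to be tested.

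The 6 members higher in replicate 1 all belong to the cap. Psmc2 had 123 reads in replicate 1 and 35 in replicate 2, a ratio of CPM of 2.01 (log2 1.01, adjusted p 0.00196 by Fisher's exact test). Psmd13 had 95.9 CPM in replicate 1 and 54.3 CPM in replicate 2, and Psmd3 had 110.5 CPM in replicate 1 and 63.9 CPM in replicate 2. The ratio was 1.77 for Psmd13, 1.75 for Psmd1, 1.73 for Psmd3, 1.60 for Psmc6 and 1.48 for Psmd2, with adjusted p from 0.00239 for Psmd2 to 0.0384 for Psmc6. The 2 members higher in replicate 2 belong to the alpha ring. Psma7 had 189 reads in replicate 1 and 188 in replicate 2, a ratio of 0.575 (log2 -0.80, adjusted p 2.62e-06 by Fisher's exact test). Psma3 had a ratio of 0.761 (log2 -0.39, adjusted p 0.0429).

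Core and cap thus sat on different sides of equal CPM. The cap genes had a median log2 ratio of 0.40 and the core genes of -0.34, against 0.26 over all tested genes. The cap median was thus nearer to that of genes in general. In replicate 1, 6 of 17 cap genes and 0 of 14 core genes were called higher, against 6.89% of all genes. Transcript length differed in the same way, with a median of 1593 bases for cap genes and 1153 bases for core genes. Over all 7872 tested genes with reads in both libraries, the log2 ratio went with length, with a Spearman correlation of 0.36 across genes. Over the 46 members it was 0.46, given as a description since the members share both libraries. Among members under 1000 bases the median log2 ratio was -0.34 and among those of 2000 bases or more it was 0.54. Over all tested genes those medians were -0.67 and 0.42. The medians of the short members and of short genes in general were thus lower in replicate 1, and those of long ones higher. Fibroblast markers were higher in replicate 1 as well (6907.5 CPM in replicate 1 and 2716.0 CPM in replicate 2). The part of these in the members' differences was not tested beyond the comparison by length that follows.

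In a comparison added after the data were seen, each gene was set against genes of similar transcript length, in 10 classes of equal size. It called 6 members and 7.86% of all genes, and of the 6 only Psmc2 and Psma3 were among the 8 above. Psmc2 kept a ratio of 1.82 (adjusted p 0.0213 by Fisher's exact test) and Psma3 one of 0.705 (adjusted p 0.00710). Psma7 came to 0.949 (adjusted p 0.941), and the 5 other cap genes to between 1.24 and 1.59 with adjusted p of 0.160 or more. Psmb5, Psmd4 and Psmd8 were called higher in replicate 1 here and in no other setting. Psmb6 was also called higher in replicate 1 here, at 1.33, although its plain ratio of CPM was 0.808. Scaling by TMM, which lowers every log2 ratio of replicate 1 over replicate 2 by 0.16, gave 6 called members, 1 higher in replicate 1 and 5 higher in replicate 2, against 11.7% of all genes. Of these 6, 3 were among the 8 above. Psmc2 was the only member called in every setting that could test it, at ratios from 1.80 to 2.11, and it could not be tested on annotated or complete models alone. Psma3 was not called on annotated or complete models alone. It was also not called with replicate 1 thinned to the depth of replicate 2, or with a minimum of 1 read.

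**Figure D3:**
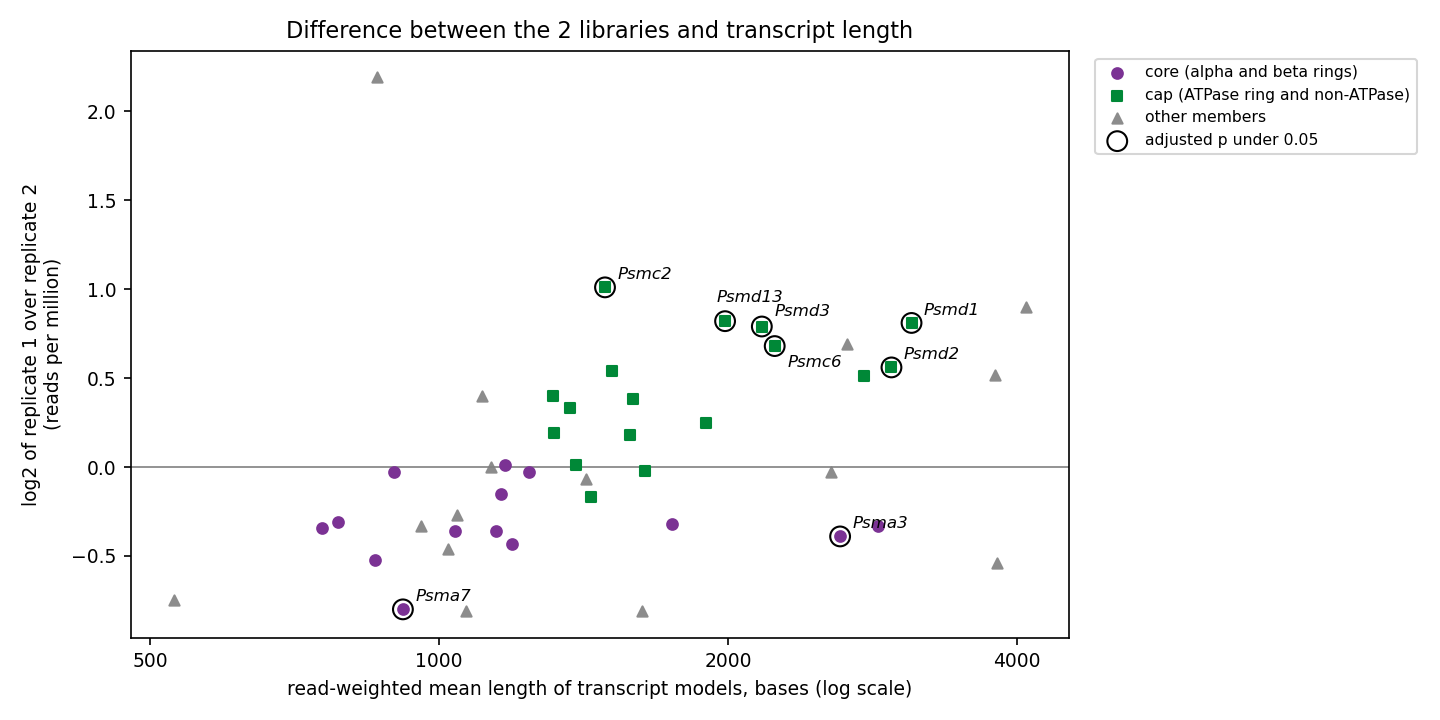
Log2 ratio of replicate 1 over replicate 2 (vertical axis) against the read-weighted mean length of the transcript models in bases (log axis) for the 46 members, core genes as circles, cap genes as squares, other members as triangles. Ringed points had an adjusted p under 0.05. The 6 ringed cap genes lie between 0.56 and 1.01 and the 2 ringed alpha genes lie at -0.39 and -0.80.

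Transcript models show what the counts are made of. Each read carries the class of its model, which is annotated, a new combination of annotated splice sites, a model with a new splice site, a partial match to an annotated model, or an unspliced or intron-overlapping read. Annotated models held 88.8% of the members' 5791 reads in replicate 1 and 84.1% of their 3257 reads in replicate 2. Over all annotated genes those shares were 71.8% and 71.7%. Models with a new splice site held 1.76% of member reads in replicate 1 and 1.44% in replicate 2, against 11.8% and 7.95% over all annotated genes. New combinations held 0.950% and 0.553% of member reads, against 3.86% and 4.07%.

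Taken per gene, members and other genes lay closer together. Among genes with at least 20 reads the median annotated share was 92.4% over 37 members and 82.9% over 4690 genes in replicate 1. In replicate 2 it was 90% over 32 members and 83.7% over 2831 genes. Members had 314 models in replicate 1 and 226 in replicate 2, and 59.6% and 57.5% of these rested on a single read. No count of models is therefore read as a number of isoforms.

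Partial models that lack the 5′ part of the transcript held 6.58% of member reads in replicate 1 and 7.65% in replicate 2, against 7.57% and 8.16% over all annotated genes. Other partial models held 0.414% of member reads in replicate 1 and 4.30% in replicate 2, against 1.37% and 3.09%. Most of that difference came from Psmc3. In replicate 2, 104 of its 280 reads, 37.1%, had 1 exon and lay in its last exon, and their most-read model was a partial one of 179 bases (chr2:91059254-91059432, mm10, plus strand). In replicate 1, 27 of its 482 reads, 5.60%, were of that kind, and their most-read model was of the unspliced class. On annotated models alone and on complete models alone Psmc3 was called higher in replicate 1, at a ratio of up to 1.50.

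Over all members, reads of 1 exon numbered 85 in replicate 1 and 193 in replicate 2, and 76 and 188 of them lay in the last exon of the main annotated model or within 50 bases of it. Psma4 had 4 such reads in replicate 1, none in its last exon, and 9 in replicate 2, which is 24.3% of its reads there. Psma3 had 6 in replicate 1 and 20 in replicate 2, 2.40% and 10.6% of its reads.

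In most members with enough reads, reads that held the last intron junction also held the first. Reads of 1 exon do not enter this share. Reads that splice out the last intron of the main annotated model were asked whether they also splice out the first. Over 31 members with 20 or more of these reads in both libraries, the median share was 94.7% in replicate 1 and 94.5% in replicate 2. It exceeded 90% for 22 members in replicate 1 and 21 in replicate 2. Psmd7 reached 99.2% in both libraries, Psmb1 98.3% and 98.4%, and the 21-exon Psmd2 reached 92.9% and 92.2%. Psme4, the large activator with 47 annotated exons, had 1 read with both introns in each library, out of 9 in replicate 1 and 4 in replicate 2. Psma7 and Psmc2 stood apart at the low end.

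**Figure D4:**
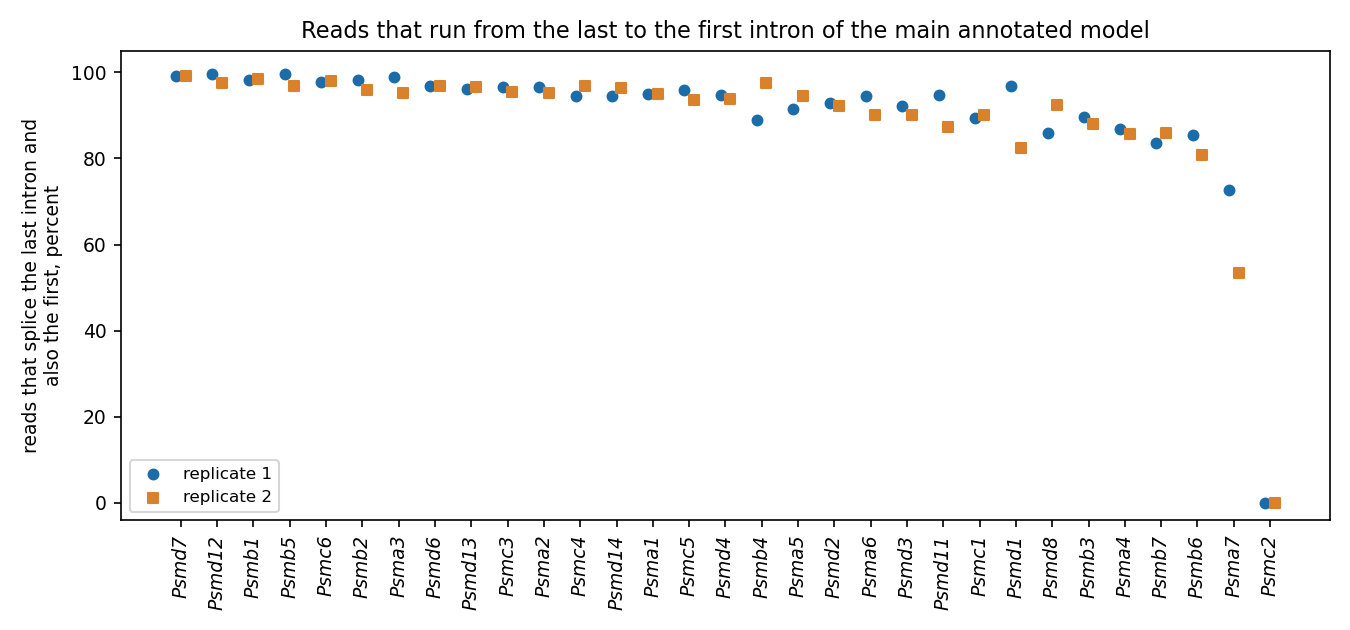
Share of reads splicing the last intron of the main annotated model that also splice the first (percent, vertical axis) for the 31 members with 20 or more of these reads in both libraries, as points for each library. Medians are 94.7% in replicate 1 and 94.5% in replicate 2, Psma7 lies at 72.7% and 53.5%, and Psmc2 lies at 0 in both.

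Psmc2, an ATPase of the cap ring, was not read from the first exon of its annotated 13-exon model Psmc2-201 to its last. Of the reads that splice its last intron, 0 of 122 in replicate 1 and 0 of 34 in replicate 2 also spliced the first, which allows a share of up to 2.46% and 8.82%. In its place stood a 12-exon model that begins with the first base of annotated exon 2 at position 21786650 of chromosome 5 and runs to 21803787 on the plus strand (mm10). It held 114 of 123 reads in replicate 1, 92.7% (interval 86.6 to 96.6%), and 32 of 35 reads in replicate 2, 91.4% (76.9 to 98.2%). Psmc2 was thus the only member whose leading complete model was not annotated in either library, and its complete models held 1 read in each.

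The annotated start codon of Psmc2 lies in exon 2, at 21786689 to 21786691. The 12-exon model, with its ends as deposited, thus holds the whole coding sequence, though the start of each read was not examined. RefSeq has 2 promoter windows for Psmc2 (build GRCm38.p6), and they are shown because they hold the starts of exon 1 and exon 2. The first holds the start of exon 1 of the annotated model, from 21785283 on, and the second covers the start of exon 2, with a RefSeq transcript start at 21786747. That start lies 97 bases after the first base of the 12-exon model, and also after the annotated start codon. The capitals mark the bases from the first base of exon 1 onward in window 1 and from the first base of exon 2 onward in window 2.
Psmc2 window 1, chr5:21785025-21785324, plus strand: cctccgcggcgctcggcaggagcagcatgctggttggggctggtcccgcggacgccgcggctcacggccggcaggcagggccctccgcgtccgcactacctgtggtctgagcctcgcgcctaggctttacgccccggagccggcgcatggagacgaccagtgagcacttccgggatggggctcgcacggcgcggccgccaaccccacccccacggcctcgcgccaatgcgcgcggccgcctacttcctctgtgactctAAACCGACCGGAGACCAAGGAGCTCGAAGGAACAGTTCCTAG
Psmc2 window 2, chr5:21786497-21786796, plus strand: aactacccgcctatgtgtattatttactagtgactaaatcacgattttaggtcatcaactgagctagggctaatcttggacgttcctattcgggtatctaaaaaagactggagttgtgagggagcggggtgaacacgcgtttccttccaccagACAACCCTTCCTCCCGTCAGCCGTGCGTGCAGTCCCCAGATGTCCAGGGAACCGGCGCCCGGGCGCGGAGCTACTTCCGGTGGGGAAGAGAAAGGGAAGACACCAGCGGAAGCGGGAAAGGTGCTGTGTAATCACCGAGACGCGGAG
In window 2 the lower-case part ends in the letters ag directly before the capitals, which is how an intron ends, so that the model starts exactly at an annotated splice acceptor. Whether the molecules began there, upstream or downstream was not tested.

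Psma7, an alpha ring gene, had a prominent partial model in both libraries. A model with the last 4 of its 7 exons, starting at position 180038187 of chromosome 2 on the minus strand and ending at 180036374, held 49 of 189 reads in replicate 1, 25.9% (interval 19.8 to 32.8%). In replicate 2 it held 86 of 188 reads, 45.7% (38.5 to 53.2%). The intervals did not overlap. Whether these molecules began at that position or were cut short was not tested. The complete annotated model Psma7-201 held 97.1% of complete-model reads in replicate 1 and 96.0% in replicate 2. Psma7 was called higher in replicate 2 over all its reads, while on annotated models alone and on complete models alone it was not called.

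Psmd1 had a partial model that stops early. A 22-exon model that lacks the last 3 of 25 exons and ends at position 86132749 of chromosome 1 held 18 of 144 reads in replicate 1, 12.5% (interval 7.58 to 19.0%), and 5 of 47 reads in replicate 2, 10.6% (3.55 to 23.1%). Psmc1 had a 10-exon model without its first exon that held 7.63% of its reads in replicate 1 and 6.96% in replicate 2. Psmb7 had one with the last 3 of its 8 exons that held 11.2% in replicate 1 and 6.94% in replicate 2. For the partial models of Psmd1, Psmc1 and Psmb7, true ends and incomplete reads were not told apart.

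Among complete models the members were led by a single form. In the 31 members whose complete models had 20 reads or more in both libraries, the leading model held a median of 97.0%, against 93.3% over the 2330 genes of that depth. In 25 of the 31 it held over 90%. The leading model was the same in both libraries for 30 of 31 members, and for 96.4% of all genes of that depth. The test of model shares called none of 22 members with 50 or more reads of complete models in both, against a background of 4.99% of 961 genes (Fisher's exact or chi-square test, adjusted). The lowest adjusted p of a member was 0.396, and 1 member, Psmc3, had an unadjusted p under 0.05.

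The exception to a single leading form was Psmd4, the ubiquitin receptor of the cap, for which several splice forms are known in mouse. Its annotated models Psmd4-201 and Psmd4-202 use alternative ends of exon 7. Psmd4-201 held 49.2% of complete-model reads in replicate 1 and 44.0% in replicate 2, and Psmd4-202 held 44.8% in replicate 1 and 53.3% in replicate 2. Counted over all reads that cross this junction, the short form had 92 of 194 reads in replicate 1, 47.4% (interval 40.2 to 54.7%), and 45 of 79 in replicate 2, 57.0% (45.3 to 68.1%). The intervals overlap, and neither form led in both libraries. The 9 bases in capitals below are in Psmd4-201 and absent from Psmd4-202, whose intron starts with them. They lie at chr3:95033909-95033917 (mm10, minus strand) in the coding sequence and keep the reading frame.
Psmd4 exon 7 end and exon 8 start: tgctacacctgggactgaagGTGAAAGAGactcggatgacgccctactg

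Psmg4, a core assembly chaperone, skipped an exon. Psmg4-202 with 3 exons held 22 of 29 reads in replicate 1 and 17 of 28 in replicate 2. Psmg4-201, which leaves out exon 2, held 7 of 29, 24.1% (interval 10.3 to 43.5%), in replicate 1 and 11 of 28, 39.3% (21.5 to 59.4%), in replicate 2. The skipped exon has 76 bases, which is not a multiple of 3, at chr13:34166061-34166136 (mm10, plus strand). It is shown in capitals between the ends of its neighbours.
Psmg4 exon 2: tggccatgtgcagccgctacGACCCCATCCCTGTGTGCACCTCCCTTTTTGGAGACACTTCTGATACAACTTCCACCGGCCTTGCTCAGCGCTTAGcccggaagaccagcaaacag

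Psmd8, a lid subunit of the cap, had a spliced form that is not annotated and recurred in both libraries. It joins exon 1 to a site 34 bases inside exon 4 and leaves out exons 2 and 3, of 73 and 103 bases. The 210 bases left out come to 70 codons, so the reading frame is kept. Its junction had 32 of 256 reads in replicate 1, 12.5% (interval 8.71 to 17.2%), and 7 of 118 in replicate 2, 5.93% (2.42 to 11.8%). The annotated Psmd8-202 held 84.9% of complete-model reads in replicate 1 and 93.1% in replicate 2. The part of exon 4 left out lies at chr7:29177198-29177231 (mm10, minus strand). Its 34 bases, in capitals, end in AG, the letters with which an intron ends.
Psmd8 exon 3 end and exon 4 start: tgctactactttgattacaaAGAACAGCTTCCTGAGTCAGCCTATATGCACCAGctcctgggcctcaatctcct

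Smaller shifts of a splice site were read in 3 further members and are shown because a few bases decide the frame. In Psma3, Psma3-201 starts exon 3 after 5 bases that Psma3-202 includes, and the annotation marks it as a target of nonsense-mediated decay. Its junction had 18 of 235 reads in replicate 1, 7.66% (interval 4.60 to 11.8%), and 10 of 157 in replicate 2, 6.37% (3.10 to 11.4%). Psma3-202 led with 87.6% of complete-model reads in replicate 1 and 87.7% in replicate 2. In Psma1 an unannotated form without the first 5 bases of exon 3 had 4 of 78 reads in replicate 1 and 1 of 58 in replicate 2. In Psmc3 an unannotated form that lacks the last 3 bases of exon 5 had 8 of 446 reads in replicate 1 and 0 of 170 in replicate 2 (interval 0 to 2.15%). Capitals mark the bases that the less used form lacks.
Psma3 exon 3 start, chr12:70983319-70983323, plus strand: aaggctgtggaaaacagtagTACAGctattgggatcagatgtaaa
Psma1 exon 3 start, chr7:114274123-114274127, minus strand: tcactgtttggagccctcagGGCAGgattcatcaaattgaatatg
Psmc3 exon 5 end, chr2:91055708-91055710, plus strand: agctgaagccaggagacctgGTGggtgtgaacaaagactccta
The 5-base pieces of Psma3 and Psma1 both end in AG, and the 3-base piece of Psmc3 begins with GT, the letters with which an intron starts. The 5-base pieces change the reading frame and the 3-base piece does not.

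**Figure D5:**
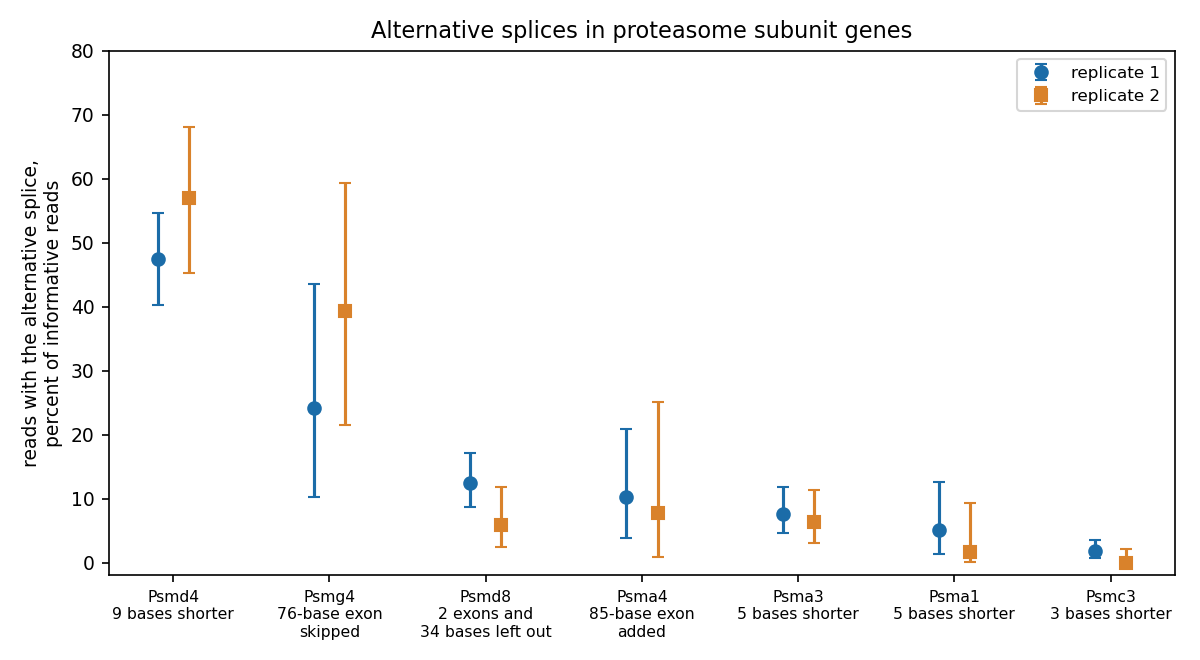
Share of reads with the alternative splice among reads that use either junction (percent, vertical axis), as points for each library with Clopper-Pearson 95% intervals. The short Psmd4 form lies at 47.4% and 57.0% in replicates 1 and 2, Psmg4 exon skipping at 24.1% and 39.3%, the unannotated Psmd8 form at 12.5% and 5.93%, and the remaining forms at 10.2% or less.

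The remaining evenly divided members had a minor second form. Psmb6-202, annotated as a retained intron, begins inside the gene, keeps 107 bases of intron before exon 5 and shares the last junction with Psmb6-201. It held 12.4% of complete-model reads in replicate 1 and 16.3% in replicate 2, beside 85.9% and 83.3% for Psmb6-201. Psma4-201 held 89.8% in replicate 1 and 96.0% in replicate 2, and a form with an added exon of 85 bases had 6 of 59 junction reads in replicate 1 and 2 of 26 in replicate 2. Psmb3-202, a retained intron, held 3.60% in replicate 1 and 3.85% in replicate 2, beside 93.7% and 93.6% for Psmb3-201. Psmd11-214 held 7.29% in replicate 1 and 2.86% in replicate 2, beside 92.7% and 97.1% for Psmd11-201. Psmb4-203, also a retained intron, held 3.45% in replicate 1 and 0 in replicate 2, beside 96.6% and 95.0% for Psmb4-201. Psma1-201, Psmd14-201 and Psmd1-201 led their genes with 86.1%, 91.7% and 97.5% in replicate 1 and 89.5%, 89.3% and 91.2% in replicate 2, and the second form of Psmd14 and Psmd1 had at most 3.57% in either library. Over all members, annotated models of the decay type held 0.350% of annotated reads in replicate 1 and 0.511% in replicate 2, and retained introns held 1.19% and 1.79%.

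Promoter windows of RefSeq, from 250 bases before to 50 bases after a start (build GRCm38.p6), were matched by symbol for 39 of the 46 members. The letters TGACNNNGC, a core of the antioxidant response element that Nfe2l1 and Nfe2l2 bind, were searched on both strands. They were found for 6 members, Psmb5, Psmb6, Psmc6, Psmd12, Psmd9 and Psme4, which is 15.4%, against 14.0% of 27025 genes with a window and 17.2% of the 8440 of these with reads in both libraries. The letters CCGGAAG, of ETS-type sites, were found on either strand for 14 members, 35.9%, against 9.93% and 20.8%. The letters CCAAT were found for 33.3% of members, against 41.1% and 43.0%, and TATAAA for 10.3%, against 15.7% and 8.77%. None of these 4 motifs contains another, and a match is a description of the letters and not a binding site. The matches of the constitutive catalytic subunits Psmb6 and Psmb5, which begin 9 and 47 bases before the RefSeq start, are shown with the motif in capitals.
Psmb6, chr11:70525328-70525376, plus strand: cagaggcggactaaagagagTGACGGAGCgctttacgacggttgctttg
Psmb5, chr14:54618014-54618062, minus strand: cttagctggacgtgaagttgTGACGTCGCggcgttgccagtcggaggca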

How the data were processed

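The deposited files hold whole counts of long reads per transcript model, 1 table per library, made from alignments to mm10 with the GENCODE M21 annotation, per the files deposited with each library. Aligner, counter and versions: not given in the sources used here. Reads were not normalized by the authors in these tables. Model classes, lengths and exon positions were taken from the same files, and the depth was 1094607 and 626289 reads after the spike-in reads were set aside.

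Counts of all models were summed per gene and divided by the reads of the library to give CPM. Levels are the mean and SD over 2 libraries, which were not compared across conditions, since there is 1 group. Gene reads were compared between the libraries by a two-sided Fisher's exact test over 7955 genes with at least 10 reads, and model shares by Fisher's exact or chi-square tests over 961 genes whose complete models had 50 reads or more in both, models under 5 reads being pooled. Complete models are annotated models, new combinations and models with a new splice site. P-values were Benjamini-Hochberg adjusted over all genes tested, with a threshold of 0.05, and measure only the spread of sampling between these libraries. The code was tested on simulated data. Intervals are Clopper-Pearson at 95% and cover counting error only. A count of 0 allows 3 reads.

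The members and lists were chosen with earlier results of these data known. Every member is named. Of each list the 4 most abundant genes and the lowest measured gene are named, except a few that are not reported here, and of the models the leading 2 of the 12 members with the most evenly divided reads, those led by an unannotated model and those that differ between the libraries. Junction shares, partial models and promoter letters are descriptions chosen after the values were seen. Python 3.11.15 with pandas 2.3.3, scipy 1.17.1 and matplotlib 3.10.9 was used, and edgeR 4.0.16 in R 4.3.3 for TMM factors only. Alternatives were annotated or complete models only, another denominator, TMM and thinning of replicate 1 to the depth of replicate 2. Others were different minimum counts, leaving out 1 library and, added after the data were seen, comparison within 10 classes of transcript length.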

Additional observations from a re-analysis of the deposited data

How the results depend on the processing

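The sum over the members, 5245.5 CPM, came to 4536.3 CPM on annotated models only, 4659.9 CPM on complete models only and 5387.8 CPM over reads on annotated genes. The mean Psmb8 share, 2.91%, came to 1.29% on annotated models only and on complete models only, and the mean Psmb9 share, 0.325%, came to 0.428% with replicate 1 thinned to the depth of replicate 2. The 8 members called different between the libraries came to 5 on annotated models only, 5 on complete models only and 5 with a minimum of 1 read, where 4, 4 and 5 were among the 8. The shares of all genes called in these settings were 12.9%, 12.6% and 6.12%, against 13.5%. The members numbered 9 over reads on annotated genes (1037 of 7955 genes called), 6 under TMM (11.7% of all genes, 3 among the 8), 7 after thinning (12.3%), 10 with a minimum of 20 reads (19.1%) and 6 within 10 length classes (7.86%), which was chosen after seeing the data. No member was called by model shares under any alternative run. Of the other values, 171 moved by less than the spread between libraries and 40 by more. Of these 40, 28 were leading model shares once partial models are counted. The 171 include every value with 1 library left out, which with 2 libraries cannot move by more than that spread. For each library left out these were 31 leading shares, 9 sums and 8 ratios. The 171 also include ratios under TMM or another denominator, where the scaling cancels. The ATPase ring was lower when only annotated or complete models were kept, at 939.5 or 959.9 CPM against 1195.0 CPM. No paired analysis was possible because there is 1 group. Depth limits the immune-type subunits, Psmd10, Psme1, Psme4, Psmg1 and Psmg3, which rest on 10 or fewer reads in at least 1 library.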

Other observations

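Reads were also found in loci antisense to members. Such loci had 22 reads over 11 members in replicate 1 and 24 reads over 13 members in replicate 2. Psmd11 had 4 in replicate 1 and 5 in replicate 2, and Psme4 had 4 in each, which were the highest counts. These reads are not part of the members' counts, and how the counting used strand is not given in the sources used here.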
